A study of Homo sapiens with 6 samples.

Results

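The 30 genes described here encode the enzymes of cholesterol and fatty acid synthesis and the SREBP system that controls them. They were taken by symbol from a count table of 21872 genes. All 30 were found, all 30 passed the filter on low counts, and 12293 genes passed it in all. The list holds 17 enzymes of sterol synthesis, 4 SREBP factors and regulators (Srebf1, Srebf2, Scap and Insig1), 8 enzymes of fatty acid synthesis and 1 sterol transporter, Stard4. The cells were MOC2, a line from a mouse oral squamous carcinoma, sequenced as 3 control and 3 knockout RNA libraries. Both groups were transduced with lentiviral Crispr/Cas9 particles at an MOI of 25 for 18 hours, the controls with a control construct and the knockout cells with one against HuR, the RNA-binding protein encoded by Elavl1. The cells then stayed 72 hours in DMEM with 10% fetal bovine serum. The genotype label reads Knockout while the titles read KD; per the treatment protocol a single clone was isolated for the loss of HuR, and no label assigns the 3 knockout libraries to different clones. The p-values therefore measure the spread between these libraries, which may be partly technical. If the knockout libraries come from that clone, its own differences from the control cells cannot be told apart from the loss of HuR.

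Cholesterol and fatty acids are both built from cytosolic acetyl-CoA. The SREBP transcription factors are made as membrane proteins of the endoplasmic reticulum; the escort Scap carries them to the Golgi for cleavage when sterols are low, and Insig proteins hold the complex back when sterols are high. The cleaved factors then raise transcription of the enzymes of both pathways, SREBP-2 mainly those of sterol synthesis and the SREBP-1 isoforms mainly those of fatty acid synthesis. Tumour cells are known for high synthesis of both lipids.

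The libraries held 16158516 to 21294330 counts after some rows, none of a member, were divided as described under processing. Elavl1 was at 107, 120 and 117 CPM (library-scaled counts, the usual CPM unit, with TMM scaling for composition) across the control libraries, against 116, 114 and 105 CPM across the knockout libraries (log2 fold change -0.04, SE 0.111, edgeR adjusted p = 0.82). Editing need not lower an mRNA, so this value does not check the labels. Knockout library 3 stood apart: across the genes tested its log2 CPM correlated with knockout libraries 1 and 2 at r = 0.927 and 0.932, where those libraries correlated at 0.982 with each other and the control libraries at 0.990 to 0.995. Of 9 epithelial markers tested, 7 fell, and the summed level of all 10 listed went from 11394 to 13987 CPM in control to 5808 to 8535 CPM in knockout. Krt14 and Krt19 did not pass (log2 fold change -2.18 and 0.25, edgeR adjusted p = 0.0873 and 0.342). Krt19 held 4161, 3321 and 2594 CPM of the sum in knockout libraries 1, 2 and 3. Krt5 was not tested and reached 2.29, 0.490 and 0.184 CPM in those libraries. Of 12 fibroblast markers, 6 could be tested and 5 of these rose, with a sum of 4.81 to 11.8 CPM in control and 2035 to 4622 CPM in knockout, while Lum was at 0 in every library, Col1a2 at 0.122 CPM or less and Dcn at 0.796 CPM or less. Most of the knockout sum came from Col6a1 (1246, 1638 and 2812 CPM) and Mgp (359, 973 and 1402 CPM). The row of Mgp was among those divided. Of the 6 endothelial markers Flt1 and Eng rose, the sum went from 16.4 to 29.7 CPM in control to 166 to 263 CPM in knockout, and Pecam1, Cdh5, Kdr and Tek stayed at 0.735 CPM or less. Of 8 markers of adipocytes, a cell type rich in lipid synthesis, Adipoq, Plin1, Lep, Cidec and Cfd were at 0 in every library, Pparg fell and Fabp4 rose (28.7 CPM in knockout library 3); the sum was 7.66 to 10.2 CPM in control and 3.92 to 30.3 CPM in knockout. The 6 hepatocyte markers summed to at most 1.22 CPM and the 6 immune markers to at most 0.234 CPM. The part of these marker shifts in the results below was not tested.

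Most genes of lipid synthesis did not pass the test used here. Of the 30 members, 5 changed: Acss2 and Srebf1 rose, and Fasn, Acaca and Hsd17b7 fell. That is 16.7% of the members, where the share over the whole table was 35.7% (20.3% up and 15.4% down). The median log2 fold change (knockout over control) was 0.05 over the members and 0.03 over all genes tested. The CPM of the groups did not overlap for 6 members, or 20%, where 57.6% of all genes tested had groups that did not overlap. The sixth was Scd1. Both shares also depend on the spread within a group, which was wider for the members. Their median SD on the log2 scale was 0.201 in control and 0.484 in knockout. Tested genes with a count in every library had 0.128 and 0.328. For 16 of the 25 members that did not pass, the 95% interval of the change lay within 2-fold either way. For the other 9 (Mvk, Idi1, Fdps, Tm7sf2, Nsdhl, Acacb, Acly, Scd2 and Elovl6) it reached further, so a change of over 2-fold lay within the interval. In bulk libraries, fewer cells expressing a gene and less of its RNA per cell cannot be told apart.

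**Figure D1:**
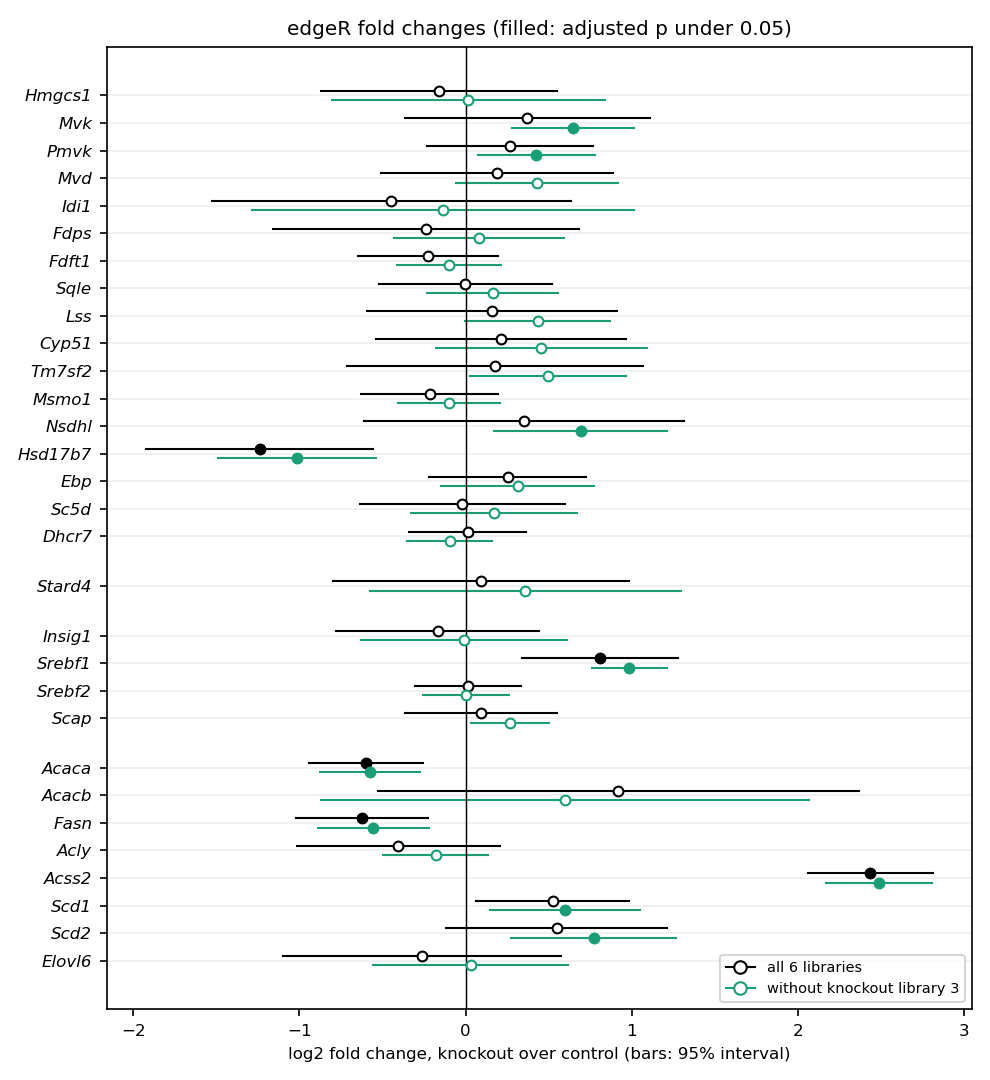
Log2 fold change of each of the 30 members (knockout over control, x axis) with its 95% interval from edgeR, over all 6 libraries (black) and without knockout library 3 (green); filled points passed an adjusted p of 0.05. With all libraries 5 members are filled, and Acss2 lies far to the right at 2.44.

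Acss2 showed the clearest change. Acss2 is the cytosolic and nuclear acetyl-CoA synthetase that makes acetyl-CoA from acetate. Its level was 12.6, 14.0 and 16.8 CPM in control libraries 1, 2 and 3 and 76.7, 85.2 and 72.9 CPM in knockout libraries 1, 2 and 3. The groups lay far apart, and knockout library 3 was close to the other knockout libraries. Acss2 rose 5.41-fold (log2 fold change 2.44, SE 0.158, 95% interval 2.06 to 2.81, edgeR adjusted p = 0.000327, n = 3 each). It passed under all 14 alternatives run, with log2 fold changes of 2.34 to 2.53. Acly, ATP citrate lyase, makes the same product from citrate. It was at 554, 688 and 676 CPM across the control libraries, against 496, 630 and 320 CPM across the knockout libraries, so knockout library 3 was lowest and the groups overlapped (log2 fold change -0.41, 95% interval -1.02 to 0.20, adjusted p = 0.255).

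Fasn and Acaca, which turn acetyl-CoA into palmitate, fell. Fasn, fatty acid synthase, was at 1034, 1215 and 1264 CPM in control libraries 1, 2 and 3, against 906, 688 and 688 CPM in the knockout libraries in the same order. Acaca, acetyl-CoA carboxylase 1, which makes the malonyl-CoA that Fasn uses, was at 194, 234 and 248 CPM across the control libraries, against 164, 138 and 144 CPM across the knockout libraries. For both genes every knockout library lay below every control library. Fasn fell 1.54-fold (log2 fold change -0.62, SE 0.166, edgeR adjusted p = 0.0277) and Acaca 1.52-fold (-0.60, SE 0.144, adjusted p = 0.0195). Both calls were lost when some of the libraries were left out. The adjusted p of Acaca was 0.0757, 0.0788 and 0.0592 by edgeR without control library 2, control library 3 or knockout library 2. That of Fasn was 0.054, 0.0958, 0.0999 and 0.081 without control library 1, 2 or 3 or knockout library 2. Across these and the other left-out libraries the log2 fold change stayed between -0.77 and -0.55 for Fasn and between -0.70 and -0.55 for Acaca. Acacb, the carboxylase of the outer mitochondrial membrane, held 3 to 22 counts per library, or 0.182 to 1.35 CPM, and its change could not be resolved (log2 fold change 0.92, 95% interval -0.53 to 2.37, adjusted p = 0.275).

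The desaturases were not lower in knockout, and neither passed the test. Scd1 and Scd2 are stearoyl-CoA desaturases, which put a double bond into palmitate and stearate. Scd1 was at 136, 183 and 207 CPM in control libraries 1, 2 and 3, against 240, 290 and 228 CPM in the knockout libraries in the same order. The groups did not overlap, but the gap between control 3 and knockout 3 was small, and the change did not pass (log2 fold change 0.53, 95% interval 0.07 to 0.99, adjusted p = 0.0752). Scd2 was at 1386, 1914 and 2107 CPM across the control libraries, against 2760, 3383 and 1761 CPM across the knockout libraries. Knockout library 3 lay inside the control range, and the test gave an adjusted p of 0.169 (log2 fold change 0.55, 95% interval -0.11 to 1.21). Without knockout library 3 both desaturases passed, Scd1 1.51-fold and Scd2 1.71-fold higher (edgeR adjusted p = 0.0385 and 0.0248). Of the counts of both genes together, Scd2 held 91.1%, 91.3% and 91.1% in control and 92.0%, 92.1% and 88.6% in knockout. No difference between the groups was detected in this share (two-sided exact permutation test, p = 1, where the smallest possible p is 0.1). It is a share of counts not scaled for transcript length, and reads shared between these close paralogues may have been split by the counting. Elovl6, which elongates palmitate to stearate, was at 64.5, 96.6 and 96.7 CPM across the control libraries, against 72.4, 103 and 39.7 CPM across the knockout libraries (log2 fold change -0.26, 95% interval -1.10 to 0.58, adjusted p = 0.591).

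**Figure D2:**
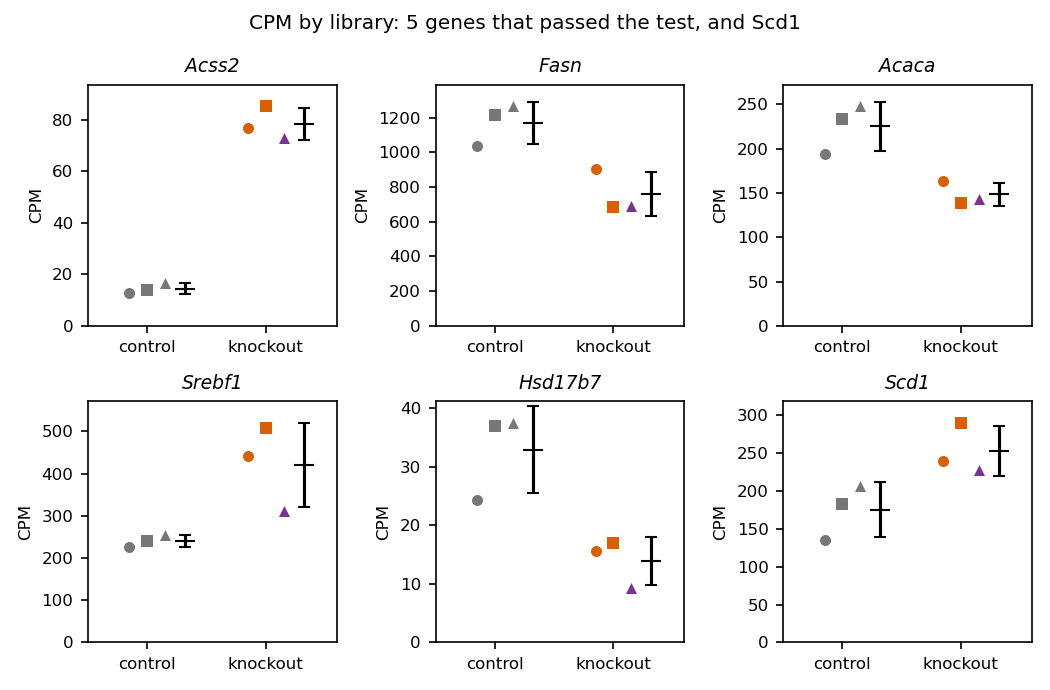
CPM (y axis, from 0) of the 5 members that passed the test and of Scd1 in each control (grey) and knockout library (orange; library 3 purple); circles, squares and triangles are libraries 1, 2 and 3, and the black bar is mean ± SD of 3 libraries. The groups do not overlap in any of the 6 panels, and knockout library 3 is the knockout library nearest to control for Acss2, Srebf1 and Scd1.

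Of the SREBP factors, Srebf1 rose and Srebf2 did not change detectably. Srebf1 encodes the SREBP-1 isoforms, and its level was 225, 239 and 256 CPM in control libraries 1, 2 and 3 and 442, 508 and 312 CPM in knockout libraries 1, 2 and 3. Every knockout library was above control, with knockout library 3 the nearest. Srebf1 rose 1.75-fold (log2 fold change 0.81, SE 0.196, 95% interval 0.34 to 1.28, edgeR adjusted p = 0.0207). The call was lost without control library 1, 2 or 3 or knockout library 2 (adjusted p = 0.0837, 0.0902, 0.0735 and 0.0514), and without knockout library 3 the gene rose 1.98-fold (adjusted p = 0.000138). Srebf2, which encodes SREBP-2, was at 320, 377 and 378 CPM across the control libraries, against 330, 387 and 369 CPM across the knockout libraries. Its log2 fold change was 0.02 with a 95% interval of -0.30 to 0.34 (adjusted p = 0.94). Of the counts of both factors, Srebf1 held 41.3%, 38.8% and 40.4% in control and 57.3%, 56.7% and 45.8% in knockout, a difference of 13.1 percentage points between the group means. That share does not depend on how libraries are scaled, and its two-sided exact permutation p of 0.1 is the smallest that 3 against 3 libraries allow. The counts do not tell the SREBP-1a and SREBP-1c transcripts apart.

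The regulators of SREBP transport overlapped between the groups. Scap, the escort, was at 90.6, 102 and 93.1 CPM across the control libraries, against 107, 122 and 75.3 CPM across the knockout libraries (log2 fold change 0.09, 95% interval -0.36 to 0.55, adjusted p = 0.732). Insig1, the retention protein and itself an SREBP target, was at 77.0, 91.4 and 92.9 CPM across the control libraries, against 62.6, 110 and 59.7 CPM across the knockout libraries (log2 fold change -0.17, 95% interval -0.78 to 0.44, adjusted p = 0.636). Knockout library 2 was the highest of all 6 libraries for both genes and knockout library 3 the lowest. Without knockout library 2, Insig1 was 0.51 lower on the log2 scale (-0.51, adjusted p = 0.0488).

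Of the 17 sterol enzymes, 1 passed the test, or 5.88%, where 35.7% of all genes tested passed (20.3% up and 15.4% down). Hsd17b7, the 3-ketosteroid reductase that acts in removing the methyl groups at carbon 4 of the sterol ring, was at 24.3, 36.8 and 37.4 CPM in control libraries 1, 2 and 3, against 15.5, 16.9 and 9.25 CPM in the knockout libraries in the same order. All knockout libraries lay below all control libraries. Hsd17b7 fell 2.36-fold (log2 fold change -1.24, SE 0.285, 95% interval -1.92 to -0.56, edgeR adjusted p = 0.0171). With control library 2 or 3 left out, Hsd17b7 was at -1.18 and -1.16 on the log2 scale and did not pass (adjusted p = 0.0656 and 0.0668). The other enzymes of the same demethylation steps did not pass. Msmo1, the C4-methylsterol oxidase, was at 142, 185 and 186 CPM across the control libraries, against 151, 167 and 123 CPM across the knockout libraries (log2 fold change -0.22, adjusted p = 0.365). Nsdhl, the decarboxylating dehydrogenase that acts between them, was at 29.3, 36.8 and 38.4 CPM across the control libraries, against 43.3, 69.1 and 20.9 CPM across the knockout libraries, with knockout libraries 2 and 3 on opposite sides of the control range (log2 fold change 0.35, adjusted p = 0.527).

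The mevalonate enzymes showed wide spread in knockout. Hmgcs1, the cytosolic synthase that makes HMG-CoA, was at 122, 172 and 182 CPM across the control libraries, against 115, 206 and 105 CPM across the knockout libraries. Mvk, mevalonate kinase, was at 35.6, 42.8 and 38.9 CPM across the control libraries, against 50.8, 71.6 and 29.4 CPM across the knockout libraries. For both genes the knockout libraries lay on both sides of the control range (Hmgcs1: log2 fold change -0.16, adjusted p = 0.70; Mvk: 0.37, adjusted p = 0.382). Pmvk, phosphomevalonate kinase, and Mvd, the decarboxylase that forms isopentenyl diphosphate, were at 0.27 and 0.19 on the log2 fold change scale, with adjusted p-values of 0.354 and 0.638. Idi1, the isomerase of that product, was at 28.9, 52.6 and 45.7 CPM across the control libraries, against 24.7, 52.4 and 16.1 CPM across the knockout libraries (log2 fold change -0.45, 95% interval -1.53 to 0.63, adjusted p = 0.472). Fdps, farnesyl diphosphate synthase, reached at most 10.8 CPM in any library (log2 fold change -0.24, adjusted p = 0.656); copies of its sequence elsewhere in the genome could take reads from it, which was not checked.

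The enzymes from squalene to cholesterol overlapped as well, apart from Hsd17b7. Fdft1, squalene synthase, Sqle, the squalene epoxidase that is a rate-limiting step, and Lss, which closes the ring to lanosterol, had log2 fold changes of -0.23, -0.00031 and 0.16 (edgeR adjusted p = 0.353, 0.999 and 0.72). Sqle was at 105, 139 and 135 CPM across the control libraries, against 121, 161 and 96.3 CPM across the knockout libraries, with a 95% interval of -0.52 to 0.52 for the change. Cyp51, the lanosterol demethylase, was at 144, 212 and 198 CPM across the control libraries, against 197, 309 and 136 CPM across the knockout libraries (log2 fold change 0.21, adjusted p = 0.626). The knockout libraries again spanned the control range. The late enzymes Tm7sf2 (a C14 sterol reductase), Ebp (the sterol isomerase), Sc5d (the C5 desaturase) and Dhcr7 (the final reductase of one branch) were at 0.18, 0.25, -0.02 and 0.01 on the log2 fold change scale, with adjusted p-values of 0.736, 0.356, 0.961 and 0.951. Dhcr7 did not follow the order of most of these enzymes: knockout libraries 1, 2 and 3 had 104, 124 and 142 CPM, with library 3 the highest, and the control libraries 113, 130 and 124 CPM. Stard4, a cytosolic carrier of sterol between membranes, was at 45.7, 74.8 and 71.8 CPM across the control libraries, against 57.8, 106 and 41.1 CPM across the knockout libraries (log2 fold change 0.10, adjusted p = 0.861).

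Within each group the members were ordered alike. In 24 of 30 members (80.0%) knockout library 2 was above library 1 and library 1 above library 3, an order found in 20.5% of all genes tested. Of the sterol enzymes 15 of 17 had this order, the exceptions being Dhcr7 and Ebp. Knockout library 2 was above every control library for 22 members (73.3%, against 43.7% of all genes tested), and knockout library 3 was below every control library for 21 (70.0%, against 44.3%). In the control group, library 1 was the lowest for 28 of 30 members (93.3%, against 35.2%); Ebp and Acacb were the exceptions. The members are measured in the same libraries and are not independent of each other, and no test was made of this order. The spread of the sterol enzymes had a median SD of 0.527 on the log2 scale between knockout libraries and 0.208 between control libraries. Over the 11972 tested genes with a count in every library the medians were 0.328 and 0.128. A larger spread in knockout than in control was thus not particular to these enzymes. Of the related genes described below, the other sterol genes had this knockout order in 3 of 13 cases, the other fatty acid genes in 10 of 22 and the fatty acid oxidation genes in 5 of 20.

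**Figure D3:**
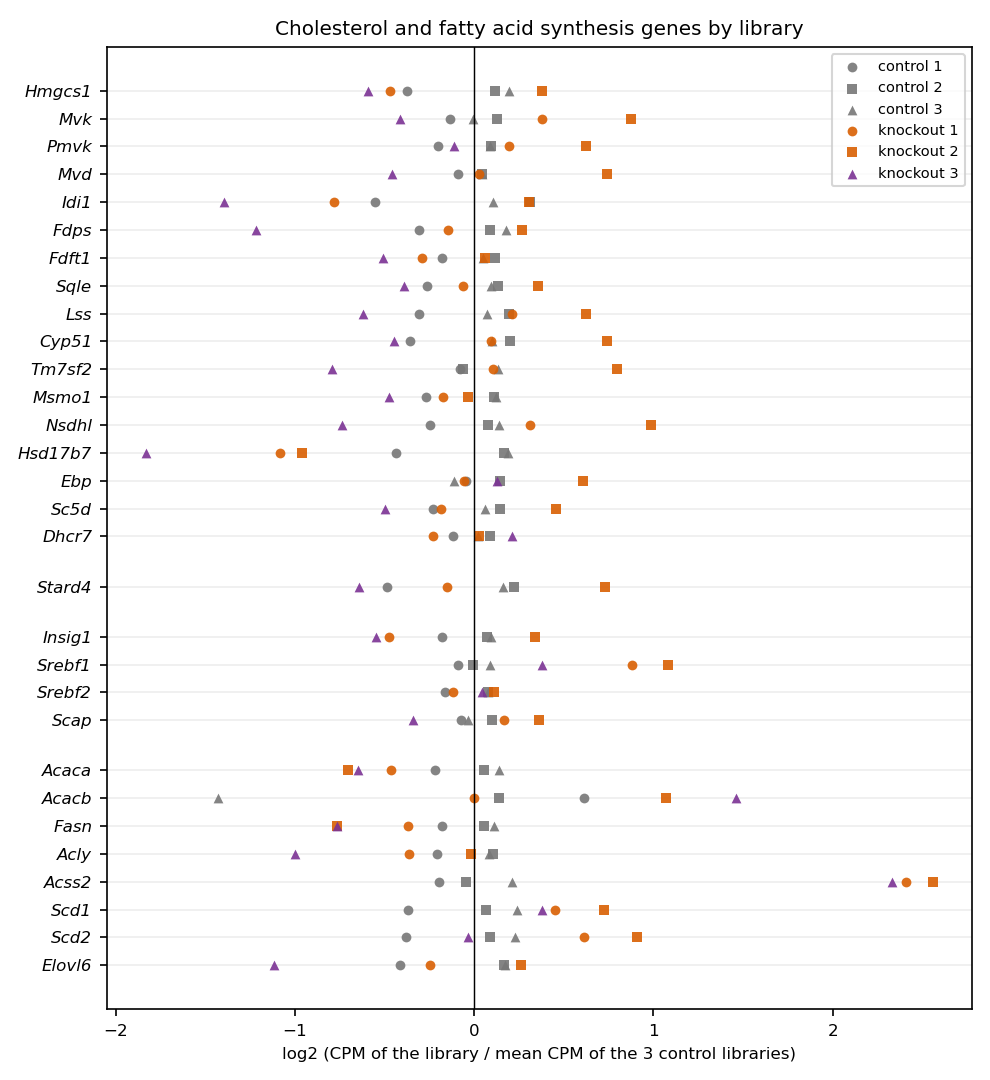
Log2 ratio of each library's CPM to the mean of the 3 control libraries (x axis) for the 30 members, grouped from top to bottom as sterol enzymes, Stard4, SREBP factors and regulators, and fatty acid enzymes. For most sterol enzymes the orange square (knockout 2) is at the right end and the purple triangle (knockout 3) at the left end, in 15 of 17 with knockout 1 between them, and the grey circle (control 1) is the lowest control in 16 of 17.

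Leaving out knockout library 3 changed which members passed. Without it 10 of 30 members passed, 7 higher and 3 lower in knockout, where 48.3% of the 12471 genes then tested passed, 25.5% higher and 22.8% lower. The 5 genes above were among the 10, and the others were Scd1, Scd2, Mvk, Pmvk and Nsdhl, all higher. Mvk was 1.57-fold higher (log2 fold change 0.65, SE 0.159, edgeR adjusted p = 0.0109), Nsdhl 1.62-fold (adjusted p = 0.0378) and Pmvk 1.34-fold (adjusted p = 0.05 after rounding, just inside the threshold). The median log2 fold change of the 30 members was then 0.22, against 0.02 over all genes tested. Without knockout library 2 the median was -0.20 and 3 members passed, Acss2, Hsd17b7 and Insig1 (28.5% of all genes then tested passed, 16.8% higher and 11.7% lower). Without control library 1, 2 or 3 the number was 3, 1 and 1 of 30, where 21.5%, 18.4% and 18.8% of all genes passed, and Acss2 was among them each time. The shares of all genes that were lower were then 9.41%, 9.13% and 9%. For 10 of the 17 sterol enzymes the sign of the fold change turned when a knockout library was left out; all values are given with the alternatives below.

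Related genes of the same pathways, taken from fixed lists, were examined next. Of 13 other SREBP, LXR and energy-sensing genes tested, 4 rose, 2 fell and 7 did not pass; 46.2% of them passed, where the share over all genes tested was 35.7% (20.3% up and 15.4% down). Prkaa2, the alpha-2 catalytic subunit of AMPK, the kinase that phosphorylates and inhibits acetyl-CoA carboxylase, was at 15.3, 13.1 and 15.8 CPM across the control libraries, against 0.981, 0.245 and 0.796 CPM across the knockout libraries. It fell 21.9-fold (edgeR adjusted p = 0.00114). Prkaa1, which encodes the alpha-1 subunit and was picked after its values were seen, was at 51.2 to 60.1 CPM across the control libraries, against 51.5 to 60.0 CPM across the knockout libraries (adjusted p = 0.883). Insig2, the other Insig protein, rose 1.58-fold (adjusted p = 0.0368), and Mylip, a ubiquitin ligase induced by LXR, rose 4.70-fold to 2.18, 6.17 and 10.5 CPM (adjusted p = 0.0272). Erlin2, a membrane protein of the endoplasmic reticulum that takes part in the degradation of sterol-regulated proteins, fell 1.44-fold (adjusted p = 0.0144). The calls of Insig2, Mylip and Erlin2 were lost when any 1 control library was left out (adjusted p = 0.0768, 0.152 and 0.135 for Insig2, 0.079, 0.108 and 0.0912 for Mylip and 0.0536, 0.0619 and 0.0559 for Erlin2 without control libraries 1, 2 and 3). Those of Insig2 and Mylip were also lost without knockout library 2 (0.0825 and 0.0592), and that of Mylip by limma-voom (adjusted p = 0.0702). By edgeR 0 of the 4 increases passed without control library 1, 2 or 3 (4, 2 and 3 genes of the list were higher with an unadjusted p under 0.05). Without knockout library 2, 1 increase passed, and 1 decrease, that of Prkaa2, passed without any 1 control library. Of all genes then tested, 12.1%, 9.29% and 9.78% were higher and 9.41%, 9.13% and 9% lower without control library 1, 2 or 3. Without knockout library 2, 16.8% of all genes were higher.

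Of 13 other genes of sterol synthesis, storage and transport tested, 3 rose and 10 did not pass; 23.1% of them passed, against 35.7% of all genes tested. Cyb5r3, the cytochrome b5 reductase that supplies electrons to sterol and fatty acid oxygenases, rose 2.05-fold from 208 ± 7.34 to 426 ± 41.8 CPM (SD, n = 3 each, edgeR adjusted p = 0.00184). Npc2, which carries cholesterol inside lysosomes, rose 2.82-fold to 296, 348 and 656 CPM across the knockout libraries (adjusted p = 0.0123). The cholesterol exporter Abca1 reached at most 0.328 CPM in any control library, against 1.91, 0.882 and 7.96 CPM across the knockout libraries (adjusted p = 0.0266). Neither Npc2 nor Abca1 passed without control library 2 (adjusted p = 0.0615 and 0.105) or control library 3 (0.0585 and 0.0879), so 1 gene of this list rose in either case. Of all genes then tested, 9.29% and 9.78% were higher.

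Of 22 other genes of fatty acid elongation, desaturation, activation and esterification tested, 4 rose, 4 fell and 14 did not pass. The share that passed, 36.4%, was near the 35.7% of all genes tested, so the genes named next are single genes that passed and no result on the list. Fads1, the delta-5 desaturase of polyunsaturated fatty acids, rose 2.01-fold from 316 ± 59.8 to 635 ± 146 CPM (edgeR adjusted p = 0.0156). Hacd2, a dehydratase of the elongation cycle, rose 1.54-fold (adjusted p = 0.0162). Elovl7, an elongase, fell 8.63-fold, from 32.3, 31.7 and 28.6 CPM to 4.14, 2.50 and 4.10 CPM (adjusted p = 0.000483), and Fads3, a relative of Fads1, fell 1.96-fold (adjusted p = 0.00141). Fads1 missed the threshold with control library 1 or 2 left out (adjusted p = 0.0581 and 0.0591) and Hacd2 missed it without control library 1, 2 or 3 (0.0729, 0.0553 and 0.0857). By edgeR 0 genes of the list rose without control library 1 or 2 and 2 rose without control library 3, where 4 were higher with an unadjusted p under 0.05 each time. Of all genes then tested, 12.1%, 9.29% and 9.78% were higher without control library 1, 2 or 3. The number that rose was 8 without knockout library 3, where 25.5% of all genes were higher. Without control library 2 or 3, 2 fell, where 9.13% and 9% of all genes were lower.

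Fatty acid oxidation is the opposing pathway. Of 20 of its genes tested, 11 rose and 9 did not pass, or 55% higher where 20.3% of all genes tested were higher. The median log2 fold change was 0.65 (0.03 over all genes tested). Acadvl, the very long chain acyl-CoA dehydrogenase, was at 62.6, 55.0 and 54.0 CPM in control libraries 1, 2 and 3, against 132, 153 and 167 CPM in the knockout libraries in the same order, and rose 2.63-fold (edgeR adjusted p = 0.000925). Acaa2, the mitochondrial thiolase, rose 3.04-fold, Acadm, the medium chain dehydrogenase, 2.01-fold, and Etfdh, which passes their electrons to ubiquinone, 2.02-fold (adjusted p = 0.00158, 0.00222 and 0.00449). In knockout library 3, 18 of the 20 genes were above the control mean, as were 18 in knockout library 1 and 19 in knockout library 2. Without control library 1, 2 or 3 the number that rose was 7, 5 and 5, where 12.1%, 9.29% and 9.78% of all genes then tested were higher. It was 8 without knockout library 2 (16.8% of all genes) and 15 without knockout library 3 (25.5%). The difference between this list and the synthesis genes was not tested.

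**Figure D4:**
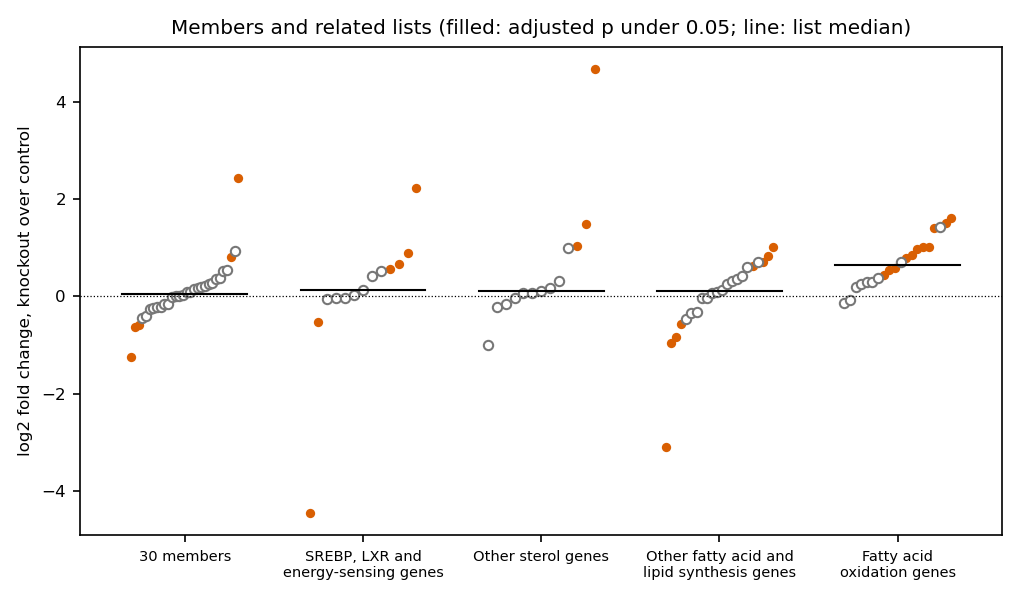
Log2 fold change (knockout over control, y axis) of each tested gene in the 30 members and the 4 related lists, sorted within each list; filled points passed an adjusted p of 0.05 and the black line is the list median. The medians are 0.05 for the members and 0.65 for fatty acid oxidation.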

How the data were processed

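The authors deposited whole-number counts per gene symbol, without normalization. Per the submitters' processing notes, STAR 2.7.1a, featureCounts and hg38 were used, with no role or order given. The symbols are those of mouse, although the labels give human as the species; annotation and strand setting: not given in the sources used here. No mouse sequence was used here. Whenever control library 1 was 0 and another library was not (1704 rows), the row held only multiples of 11; such rows, none of which is a member, were divided by 11, and 76 of them were tested. Counts were analysed with edgeR 4.0.16 (R 4.3.3): filterByExpr, TMM scaling, robust dispersions, the quasi-likelihood test over 12293 genes and Benjamini-Hochberg adjustment with a threshold of 0.05. Standard errors were derived as the fold change divided by the root of the F statistic. Alternatives used DESeq2 1.42.0, limma-voom 3.58.1, other scaling, filters and row treatments, and left out each library. The procedure was tested on simulated counts. Every pair of libraries of 1 group differed by more than sampling noise. Libraries were grouped by title. The members and lists were chosen with earlier results of these data known. All 30 members, and from each related list the 4 genes with the smallest p, are named, except 1 gene that is not reported here; Prkaa1 and the single markers were picked after their values were seen.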

Additional observations from a re-analysis of the deposited data

How the results depend on the processing

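Of 420 values of the 30 members under 14 alternatives, 371 kept both direction and side of the threshold. DESeq2, limma-voom, upper quartile scaling, no filter, the deposited counts, the table without the divided rows and no robust estimation each called the same 5 members. The share of all genes tested that passed in these fits ran from 26.8% (no filter) to 39% (DESeq2). With single libraries left out, the number of members that rose lay between 1 and 7 and the number that fell between 0 and 3 (0 without control library 2 or 3, where 3 members each time were lower with an unadjusted p under 0.05 by edgeR); over all genes these ranges were 1166 to 3178 and 1130 to 2843. Same-numbered libraries of the groups deviated from their group means with correlations of -0.0446, 0.294 and 0.0581. Libraries of different numbers gave -0.253 to 0.184. With 3 libraries per group these values do not settle whether the numbers pair the libraries. With the replicate number as a block, 1 member fell, 2 rose and 7 fatty acid oxidation genes rose. In that fit 29.2% of the 12293 genes tested passed, and 55% of those that passed were higher in knockout. The block ended the calls of Acaca and Fasn (edgeR adjusted p = 0.0592 and 0.0793) and, among the SREBP, LXR and energy-sensing genes, left 0 of 4 increases (5 with an unadjusted p under 0.05), with Insig2 at 0.0769 and Mylip at 0.0569. The sign changed with a left-out library for these members, whose log2 fold changes ranged from -0.53 to 0.017 (Hmgcs1), -0.19 to 0.43 (Mvd), -0.58 to 0.079 (Fdps), -0.22 to 0.16 (Sqle), -0.14 to 0.43 (Lss), -0.15 to 0.46 (Cyp51), -0.27 to 0.50 (Tm7sf2), -0.12 to 0.69 (Nsdhl), -0.33 to 0.17 (Sc5d), -0.095 to 0.12 (Dhcr7), -0.067 to 0.078 (Srebf2), -0.061 to 0.27 (Scap), -0.61 to 0.031 (Elovl6) and -0.37 to 0.36 (Stard4). None of these passed in the report's fit. The share of Scd2 differed by -0.85 to 0.92 percentage points. Dhcr7 was at -0.014 with DESeq2 and -0.020 with no filter, Srebf2 at -0.013 and -0.018, and Sqle at 0.0010 without the divided rows. The cause was not tested. With 3 libraries per group, the 95% intervals give the changes that the data allow.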
